A study of Mus musculus with 8 samples.

Results

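Potassium channel genes were examined in laser-captured mouse endometrium, as all genes whose mouse symbol starts with Kcn, followed by 1 or more letters and a number. The rule takes 92 of the 52325 genes of the deposited count table, of which 59 passed the filter on low counts and were tested among 18174 genes. By family they are 40 voltage-gated channel genes (24 tested), 15 inward rectifiers (8 tested), 14 two-pore channels (7 tested), 8 calcium- or sodium-activated channels (all 8 tested) and 15 auxiliary subunits (12 tested). Of the 33 genes not tested, 8 were at 0 counts in all 8 libraries, 12 including those 8 were at or under 3 counts in every library, and the highest single count was 70 (*Kcnip4* in WT library 1), followed by 67 for *Kcnv2* and 47 for *Kcnj3*, both in WT library 2.

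The libraries were made from endometrium that was cut by laser out of frozen sections of the uterus, from 4 WT and 4 *Thra1PV/+* mice in metestrus. The mutant mice carry the PV mutation in 1 *Thra* allele, which encodes a dominant negative form of the thyroid hormone receptor TRα1; the other allele is normal. PV is a germline allele, so it is not limited to the endometrium by a promoter or a Cre. The ages of these 8 mice are not given in the sources used here. According to the study's methods, females were kept in soiled cages of males to synchronize their cycles. No other treatment of these 8 mice is named. The comparison asks which endometrial transcripts differ with the receptor mutation. *Thra* itself was at 80.1 ± 34.2 CPM (normalized counts scaled to a common library size; mean ± SD, n = 4) in *Thra1PV/+* and 78.0 ± 33.7 CPM in WT endometrium, and counts per gene do not separate the PV transcript from the normal one.

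Potassium channels let potassium ions pass down their gradient and so set the resting potential, repolarize excitable cells and drive chloride and fluid transport in epithelia. Inward rectifiers and two-pore channels conduct near rest, voltage-gated channels open on depolarization, and calcium-activated channels couple the potential to intracellular calcium, with auxiliary subunits tuning the pore-forming ones. In the uterus, potassium channels are known for holding smooth muscle quiescent and, in the lining epithelium, for supporting secretion into the lumen.

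Total counts lay between 48791602 and 59818887 per library. Libraries differed in their markers. In WT library 1 the 12 smooth muscle markers summed to 16396 CPM, while WT libraries 2 to 4 held 700 to 1462 CPM and the *Thra1PV/+* libraries 207 to 869 CPM, and all 12 were highest there. All 12 had a negative log2 fold change and 0 were called (median -3.68, and -1.27 without WT library 1). The 10 squamous epithelium markers ran the other way by genotype, summing to 2501 to 4186 CPM in *Thra1PV/+* and 2.10 to 47.1 CPM in WT, with 9 of the 10 called higher and WT library 1 the lowest. Markers of simple and glandular epithelium, the tissue's own lining, were present in all libraries, at 2616 to 7159 CPM in *Thra1PV/+* and 2950 to 10368 CPM in WT, with 0 of 10 called. In *Thra1PV/+* library 1 the stromal markers summed to 5371 CPM, beside 446, 999.6 and 1289 CPM in the other mutants and 1606 to 5368 CPM in WT, so those 3 mutants lay below every WT library. That library also held the 2616 CPM of simple epithelium, against 5430 to 7159 CPM in the other mutants. The WT libraries differed in the same way. Stromal markers summed to 5105 and 5368 CPM in WT libraries 1 and 2, and to 1606 and 1792 CPM in WT libraries 3 and 4. Simple epithelium was at 2950 and 3271 CPM in WT libraries 1 and 2, and at 10368 and 8429 CPM in WT libraries 3 and 4. Of the stromal, endothelial, leukocyte and nerve markers tested (9, 6, 8 and 4), 0 were called, although 9 of 9 stromal and 4 of 4 nerve markers had a negative and 8 of 8 leukocyte markers a positive log2 fold change (medians -0.89, -1.62 and 1.21, and -0.76, -1.78 and 1.31 without WT library 1). Further, 1 of 5 pericyte markers (*Notch3*) was called higher and 1 of 4 ciliated cell markers (*Foxj1*) lower. The other 4 pericyte markers had a negative log2 fold change (median of the 5 -0.38, and 0.17 without WT library 1). All 4 ciliated cell markers were negative (median -0.86, and -0.40 without that library). Calls required at least a 2-fold change with an adjusted p of at most 0.1, and 168 genes were called higher and 12 lower in *Thra1PV/+* endometrium.

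Of the 59 tested channel genes, 3 were called higher in *Thra1PV/+* endometrium, and 0 were called lower. They were the inward rectifiers *Kcnj15* and *Kcnj16* and the voltage-gated channel *Kcnh1*. Over all tested genes 0.924% were called higher and 0.066% lower. At an unadjusted p under 0.05, edgeR's test gave 14 channel genes beside 9.77% of all genes, 5 of them higher and 9 lower beside 5.05% and 4.72%, and DESeq2 called 4 higher and 2 lower of 68 channel genes, beside 2.57% and 1.01% of all genes. In the plot of fold changes by family most points lie below 0 and many of the lowest move towards 0 once WT library 1 is left out. The log2 fold change was negative for 43 channel genes and positive for 16 (27.1%, beside 43.2% of all genes), with a median of -0.64 beside -0.05 over all genes. Without WT library 1 the counts were 35 negative and 24 positive, and the median was -0.21 beside 0.00245. Without *Thra1PV/+* library 1 the median was -0.86 and the same 3 genes were called.

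**Figure D1:**
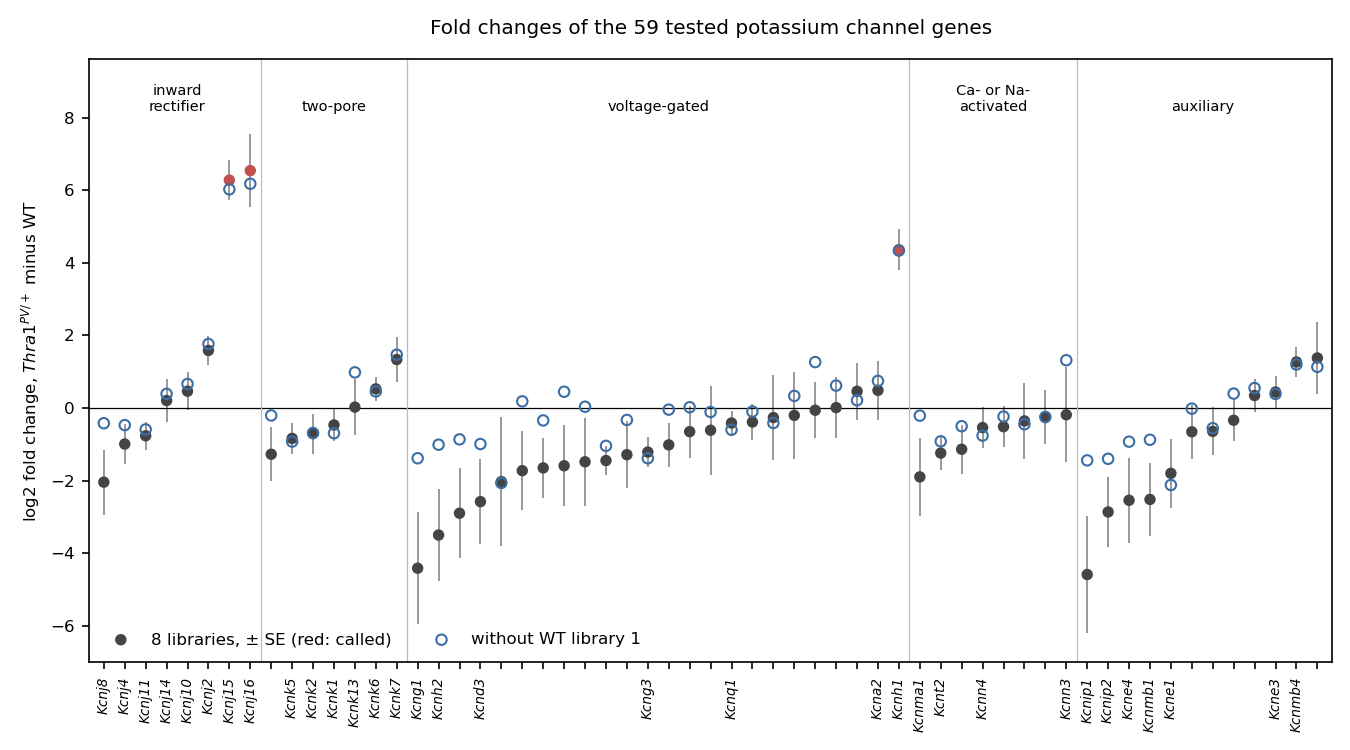
Log2 fold change (Thra1PV/+ minus WT, y axis) of the 59 tested potassium channel genes (x axis), by family, with the genes described in the text labelled. Filled points are the fit on 8 libraries with standard errors as bars, red where called, and open circles the fit without WT library 1; Kcnj16 (6.54), Kcnj15 (6.28) and Kcnh1 (4.36) stand above all others.

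*Kcnj15* encodes an inward rectifier known from kidney and other transporting epithelia. It lies on chr16:95257558-95300260 (GRCm38, plus strand; identifier ENSMUSG00000062609.13). Its CPM values were 41.9, 87.1, 50.5 and 38.1 in the 4 *Thra1PV/+* libraries and 0.210, 1.01, 0.696 and 0.879 in the 4 WT libraries. Every mutant library lay far above every WT library. The estimated counts behind them were 2283, 4294, 2472 and 2173 against 11, 56, 35 and 42, so the WT level was low but above the floor of 3 counts. The group means were 54.4 ± 22.4 and 0.699 ± 0.351 CPM, and the log2 fold change was 6.28 (SE 0.54, adjusted p = 0.0033). In bulk tissue a larger share of cells with a transcript and more transcript per cell cannot be told apart. A two-sided exact permutation test gave p = 0.0286, the smallest that 70 arrangements of the libraries allow, as for every channel gene without overlap. Leaving out each library in turn kept the call 8 of 8 times, with log2 fold changes of 5.95 to 6.55.

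*Kcnj16* encodes an inward rectifier that is silent alone and pairs with the products of *Kcnj10* or *Kcnj15* in epithelial basolateral membranes. The gene spans chr11:110968033-111027968 (plus strand). *Thra1PV/+* libraries held 15.4, 41.1, 23.0 and 9.44 CPM, and WT libraries 0, 0.469, 0.119 and 0.356 CPM. WT library 1 had no count, which allows up to 3 counts at its total, and the other WT libraries had 26, 6 and 17 counts against 539 to 2023 in the mutants. Its log2 fold change was 6.54 (SE 1.01, adjusted p = 0.0310), from means of 22.2 ± 13.7 and 0.236 ± 0.215 CPM. It was called in 6 of the 8 fits with 1 library left out. Without *Thra1PV/+* library 3 the adjusted p was 0.112 at a log2 fold change of 6.52, and without WT library 4 it was 0.107 at 6.79. Among the mutants library 2 was highest and library 4 lowest for both *Kcnj15* and *Kcnj16*. *Kcnj10*, the other partner, was at 1.22 ± 0.868 and 0.883 ± 0.216 CPM (log2 fold change 0.46, SE 0.53, adjusted p = 0.840).

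*Kcnh1* encodes an ether-à-go-go channel, known from brain and from proliferating and tumor cells. It lies on chr1:192190774-192510159. Its values were 8.32, 6.15, 5.44 and 2.57 CPM in *Thra1PV/+* and 0.229, 0.524, 0.139 and 0.188 CPM in WT libraries, again without overlap. They rest on 147 to 453 counts in the mutants and 7 to 29 in WT. The log2 fold change was 4.36 (SE 0.57, adjusted p = 0.0181), with means of 5.62 ± 2.37 and 0.270 ± 0.173 CPM, and the call was made in all 8 fits with a library left out. On the deposited TPM (transcript abundance per length) with a pseudocount of 1 the log2 fold change was 0.99, just under the fold threshold. That pseudocount limits the value, as the means were 1.14 TPM in *Thra1PV/+* and 0.0576 TPM in WT. With a pseudocount of 0.1 the log2 fold change was 2.89 and *Kcnh1* was called. The squamous markers were higher in the same libraries, at most 47.1 CPM in WT and at least 2501 CPM in *Thra1PV/+*. In mutant libraries 1 to 4 the marker sums were 2501, 3732, 4186 and 2944 CPM, beside *Kcnh1* values of 8.32, 6.15, 5.44 and 2.57 CPM. *Kcnh1* was thus highest where the sum was lowest, and lowest in library 4. What share of the channel transcripts came from squamous cells was not tested.

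**Figure D2:**
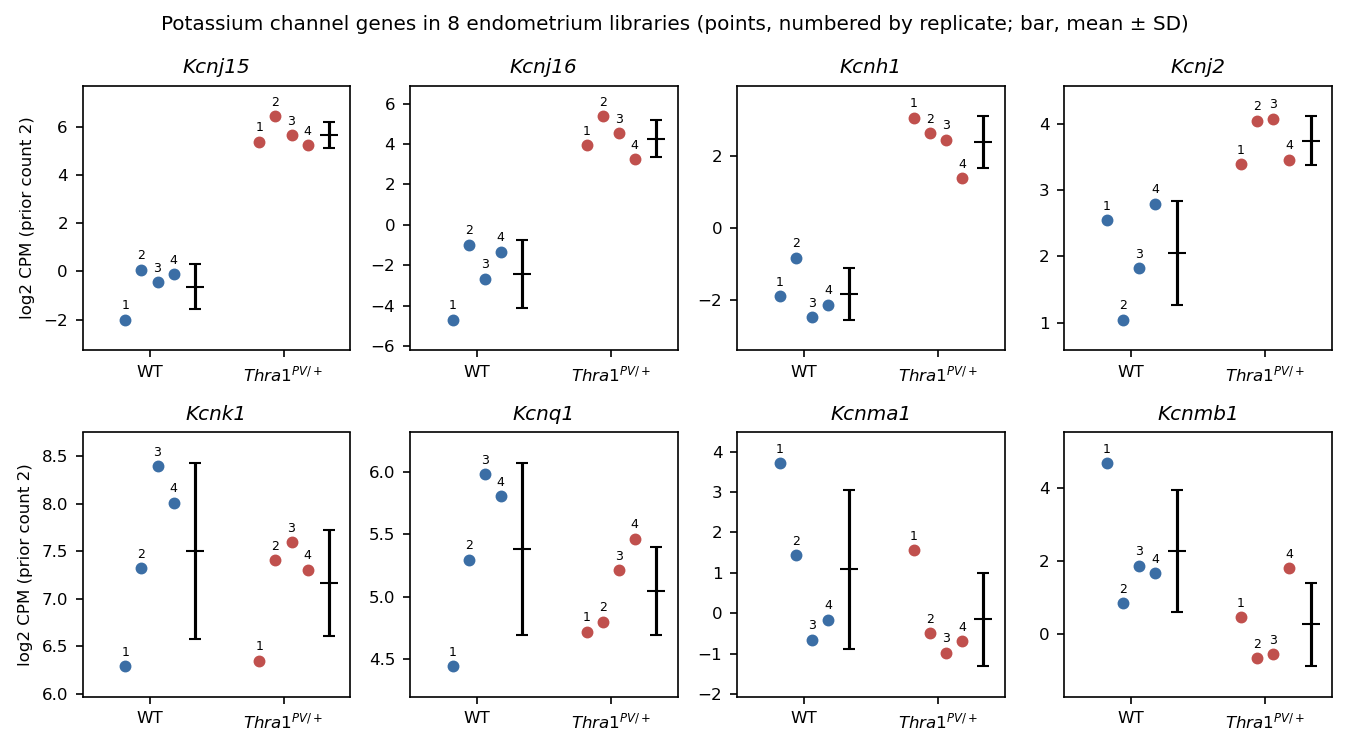
Log2 CPM (prior count of 2, y axis) of 8 potassium channel genes in WT and Thra1PV/+ libraries (x axis), 1 point per library with its replicate number and the mean ± SD beside it. For Kcnj15, Kcnj16, Kcnh1 and Kcnj2 every mutant point is above every WT point; Kcnk1 and Kcnq1 overlap, and for Kcnma1 and Kcnmb1 WT library 1 is the highest.

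The 250 bases before the start of each called gene are shown because the study concerns a nuclear receptor and Krüppel-like factors (RefSeq promoter windows, build GRCm38.p6, plus strand, 5′ to 3′). Capitals mark matches on either strand to AGGTCA, the core that thyroid hormone receptors recognize, and to CACCC, the core of boxes bound by Krüppel-like factors. The windows are chr16:95257308-95257557 for *Kcnj15*, chr11:110967783-110968032 for *Kcnj16*, the one at the gene start among 4 listed, and chr1:192190527-192190776 for *Kcnh1*.
Kcnj15: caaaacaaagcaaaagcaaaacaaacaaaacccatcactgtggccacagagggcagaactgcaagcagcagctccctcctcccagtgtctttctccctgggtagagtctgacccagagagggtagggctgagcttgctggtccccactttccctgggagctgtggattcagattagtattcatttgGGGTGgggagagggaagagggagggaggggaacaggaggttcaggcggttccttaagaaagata
Kcnj16: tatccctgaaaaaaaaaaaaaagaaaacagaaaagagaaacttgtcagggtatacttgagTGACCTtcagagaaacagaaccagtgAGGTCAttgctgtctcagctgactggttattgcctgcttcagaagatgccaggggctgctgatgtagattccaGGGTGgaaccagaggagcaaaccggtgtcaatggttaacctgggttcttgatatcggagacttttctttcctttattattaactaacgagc
Kcnh1: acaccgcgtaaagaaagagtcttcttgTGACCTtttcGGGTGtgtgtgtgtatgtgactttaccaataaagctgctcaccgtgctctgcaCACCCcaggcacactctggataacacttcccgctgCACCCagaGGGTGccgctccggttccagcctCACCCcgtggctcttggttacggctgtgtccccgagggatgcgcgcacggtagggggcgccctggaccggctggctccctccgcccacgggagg
AGGTCA was found 0 times in the *Kcnj15* window, 2 times in the *Kcnj16* window and 1 time in the *Kcnh1* window, and CACCC 1, 1 and 5 times. The other 3 *Kcnj16* windows held AGGTCA 0 times and CACCC 0, 0 and 1 times. The AP-1 motif TGANTCA was found 0 times in the 3 windows printed. Among 32851 such windows of the mouse genome, 14.0% hold AGGTCA, 52.0% hold CACCC and 6.75% hold TGANTCA on either strand. The matches describe the letters of these windows only. The *Kcnh1* window does not end at a transcript start of GENCODE M21.

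Beside the 2 called inward rectifiers, *Kcnj2* was higher in every mutant library. *Kcnj2*, whose product holds the resting potential in muscle and many other cells, lies 38195 bases from *Kcnj16* on chromosome 11. Its levels were 10.4, 16.4, 16.8 and 10.9 CPM in *Thra1PV/+* and 5.80, 2.02, 3.48 and 6.89 CPM in WT endometrium. The difference, a log2 fold change of 1.59 (SE 0.40), missed the threshold in edgeR's quasi-likelihood test (adjusted p = 0.201), while DESeq2 called it (adjusted p = 0.00826). In all, 6 of the 59 channel genes were higher without overlap between the genotypes (*Kcnj15*, *Kcnj16*, *Kcnh1*, *Kcnj2*, *Kcnk7* and *Kcnmb4*), and 3.55% of all genes were.

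*Kcnj8*, the pore of the vascular and smooth muscle ATP-sensitive channel, gave 16.0, 2.84, 7.93 and 9.32 CPM in *Thra1PV/+* and 112, 12.8, 9.59 and 14.7 CPM in WT. Its difference rested on WT library 1, since the log2 fold change of -2.04 (SE 0.89, adjusted p = 0.513) became -0.42 without that library. *Kcnj11*, the pore of the corresponding channel in pancreatic beta cells, was low, at 0.169 ± 0.0414 and 0.288 ± 0.0975 CPM. *Kcnj4* and *Kcnj14* were also under 1 CPM on average in both genotypes. In all 35.6% of the 31-base stretches of *Kcnj14* also occur in another gene, the highest share among tested channel genes. This share was 0.916% for *Kcnj15*, 1.41% for *Kcnj16* and 0 for *Kcnh1*. *Kcnj6*, the neighbor of *Kcnj15* on chromosome 16, was at 0 counts in every library.

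Of the 7 tested two-pore channel genes 0 were called, although the family holds the most abundant channel transcript. Per transcript length, in the deposited TPM, *Kcnk1* ranked first of the channel genes in both genotypes, at 106 ± 29.8 TPM in *Thra1PV/+* and 141 ± 70.1 TPM in WT. *Kcnk1* encodes a weakly conducting channel found in kidney and other epithelia. It held 34.8% to 49.3% of the summed TPM of all channel genes in the mutants, 51.5% to 57.7% in 3 WT libraries and 13.9% in WT library 1. Its CPM values were 81.5, 169.5, 193.1 and 157.9 in *Thra1PV/+* and 78.2, 159.7, 336.8 and 257.7 in WT, with the mutants inside the WT range. Between genotypes the log2 fold change from the counts was -0.47, with a 95% interval of -1.48 to 0.55 (adjusted p = 0.798). The stretch-activated *Kcnk2* gave -0.71 (SE 0.55), the acid-sensing epithelial channel *Kcnk5* -0.84 (SE 0.44), and *Kcnk6*, a relative of *Kcnk1*, 0.53 (SE 0.34). *Kcnk7* had a small but separate difference, with 0.881, 0.670, 1.14 and 0.753 CPM in the mutants and 0.401, 0.542, 0.0398 and 0.377 CPM in WT (log2 fold change 1.33, SE 0.63, adjusted p = 0.558). The WT 3 value rests on 2 counts.

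**Figure D3:**
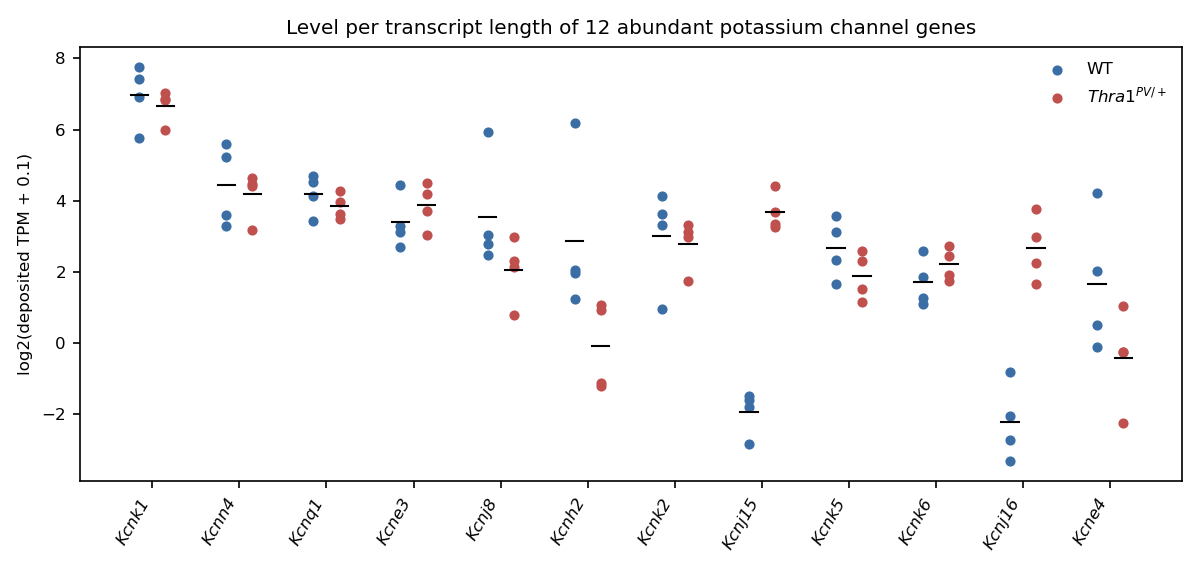
Deposited TPM, on a log2 scale after adding 0.1 (y axis), of 12 of the 15 channel genes with the highest mean TPM (x axis); points are libraries and bars the group means on that scale. Kcnk1 is at the top in both genotypes, and Kcnj15 and Kcnj16 show the widest gaps between the groups.

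The order of levels per length placed *Kcnn4* after *Kcnk1* in both genotypes, at 19.3 ± 7.08 TPM in *Thra1PV/+* and 26.9 ± 19.1 TPM in WT. *Kcnn4* is the intermediate-conductance calcium-activated channel of epithelia and lymphocytes. In the mutants *Kcne3* (15.5 ± 6.29 TPM), *Kcnq1* (14.6 ± 3.71 TPM) and *Kcnj15* (13.4 ± 5.37 TPM) followed, and these neighbors did not differ beyond their spread. In WT endometrium ranks 3 and 4 were held by *Kcnh2* (20.6 ± 34.5 TPM) and *Kcnj8* (20.2 ± 26.9 TPM), with library 1 far above the other WT libraries. *Kcnq1* had rank 5 there (19.2 ± 6.63 TPM) and *Kcne3* rank 6 (11.6 ± 6.87 TPM). *Kcnj15* was 51st and *Kcnj16* 55th in WT, against ranks 5 and 7 in the mutants.

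*Kcnq1* and *Kcne3* together form the basolateral potassium channel of secretory epithelia. *Kcnq1* had 26.3, 27.8, 37.0 and 44.1 CPM in *Thra1PV/+* and 21.7, 39.3, 63.3 and 55.9 CPM in WT, so that the groups overlapped. The log2 fold change was -0.41 with a 95% interval of -1.17 to 0.34 (adjusted p = 0.753). For *Kcne3* the values were 6.74, 11.0, 17.9 and 15.1 CPM against 7.52, 5.22, 7.06 and 17.6 CPM, with a log2 fold change of 0.44 (95% interval -0.58 to 1.46, adjusted p = 0.816). *Kcnn4* gave -0.54 (95% interval -1.85 to 0.77). These intervals still include a 2-fold decrease of *Kcnn4* and *Kcnq1* and a 2-fold increase of *Kcne3*. *Kcnq1* shares its locus with the opposite-strand transcript *Kcnq1ot1*, and the strand setting of the authors' counting is not given in the sources used here.

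Among the 24 tested voltage-gated genes, 20 had a negative log2 fold change (median -1.12), and 14 were highest in WT library 1. Without that library 14 of the 24 were negative, with a median of -0.10. Of all 59 channel genes 1 was lower in every mutant library than in any WT library, where 2.49% of all genes were.

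Larger negative values rested on 1 library. *Kcnh2*, the rapid delayed rectifier of heart that is also found in smooth muscle, had 103 CPM in WT library 1, 6.99, 3.48 and 5.88 CPM in the other WT libraries, and 4.85, 0.731, 0.817 and 4.13 CPM in *Thra1PV/+*. Its log2 fold change was -3.50 (SE 1.28, adjusted p = 0.413), and -1.01 without library 1. *Kcng1*, whose product modifies other voltage-gated subunits and makes no channel alone, held 25.4 CPM in WT library 1 and at most 1.28 CPM elsewhere (-4.41, and -1.38 without it). The A-type channel *Kcnd3* followed with 56.8 CPM there and at most 13.8 CPM elsewhere (-2.58, and -0.99 without it). *Kcng3*, a modifier like *Kcng1*, was low throughout, at 0.173 ± 0.0542 and 0.405 ± 0.131 CPM (-1.21, SE 0.41, adjusted p = 0.374). Here WT library 1 was the lowest of the WT libraries.

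The plot of levels relative to each gene's mean shows this column of high values. WT library 1 was the highest of the 8 libraries for 28 of the 59 channel genes, or 47.5%, beside 19.2% of all tested genes. Of the 9 channel genes lower at an unadjusted p under 0.05, 8 were highest in it, and 2 of the 9, *Kcng3* among them, were still under 0.05 once it was left out. In that fit 4 channel genes were lower and 6 higher at this level, or 6.78% and 10.2%, beside 3.53% and 5.4% of all genes. The part of muscle tissue in these values was not tested.

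**Figure D4:**
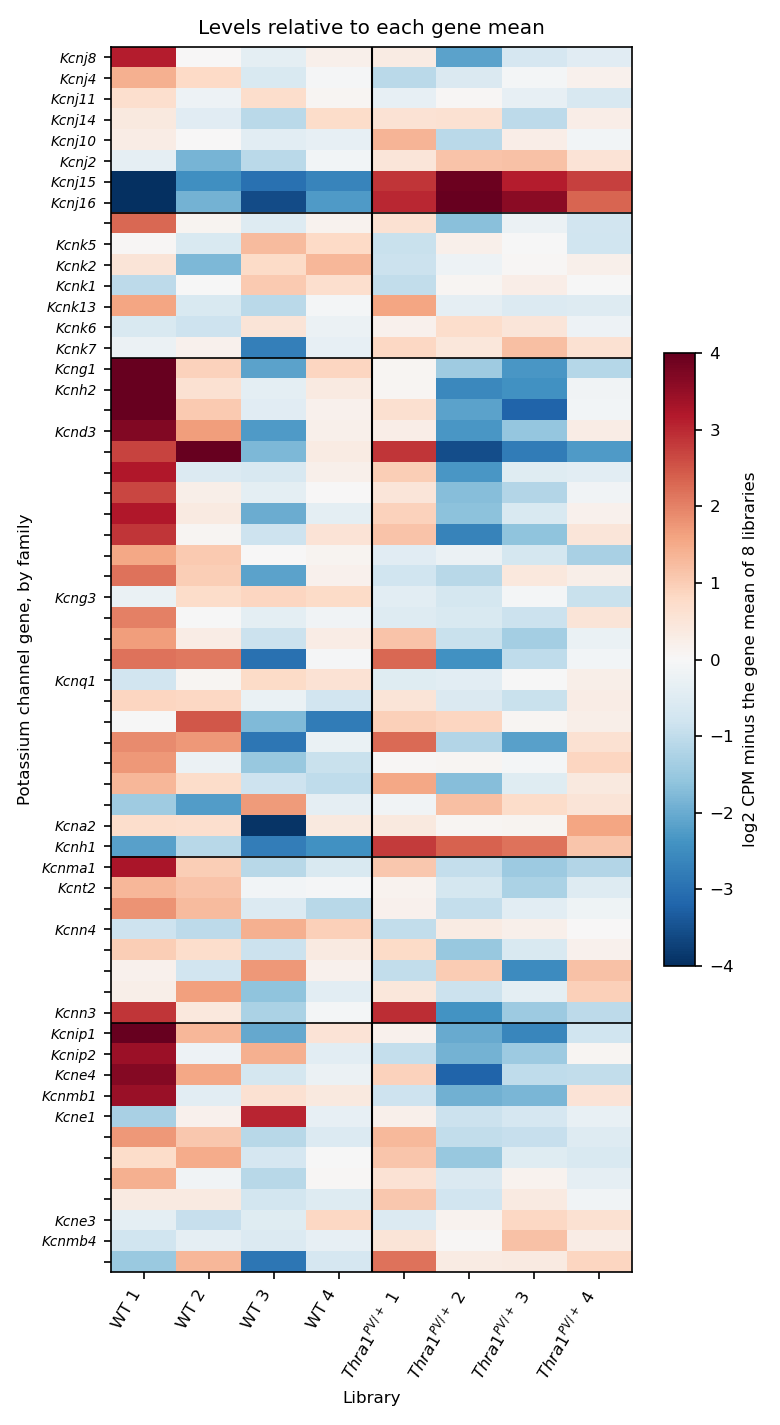
Log2 CPM minus each gene's mean over the 8 libraries (color, cut at -4 and 4) for the 59 tested channel genes (rows, by family, labelled where the text describes them) and 8 libraries (columns). WT library 1 carries most of the dark red cells, and Kcnj15, Kcnj16 and Kcnh1 are blue in all 4 WT and red in all 4 Thra1PV/+ libraries.

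The muscle channel genes were low in most libraries. *Kcnma1*, the pore of the large-conductance calcium-activated channel, relaxes smooth muscle together with *Kcnmb1*, its muscle beta subunit. *Kcnma1* values were 2.90, 0.670, 0.470 and 0.578 CPM in *Thra1PV/+* and 13.1, 2.67, 0.597 and 0.858 CPM in WT. Both genotypes held 1 library well above the rest, library 1 in each. The log2 fold change was -1.90 (SE 1.08, adjusted p = 0.631), and -0.21 without WT library 1. On the deposited TPM the sign turned, with means of 1.17 ± 0.240 TPM in *Thra1PV/+* and 1.05 ± 1.14 TPM in WT. No direction can be given for *Kcnma1* from these libraries.

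*Kcnmb1* had 1.32, 0.588, 0.633 and 3.45 CPM in *Thra1PV/+* and 26.0, 1.75, 3.62 and 3.12 CPM in WT endometrium. WT library 1 was again the highest, and the mutant library 4 lay within the range of the other WT libraries. The log2 fold change was -2.52 (SE 1.0, adjusted p = 0.462), and -0.87 without WT library 1. *Kcnmb1* lies within *Kcnip1* on the opposite strand. *Kcnip1*, an auxiliary subunit of the A-type channels, was also highest in WT library 1, at 31.1 CPM against at most 1.79 CPM elsewhere (log2 fold change -4.59, and -1.44 without it).

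**Figure D5:**
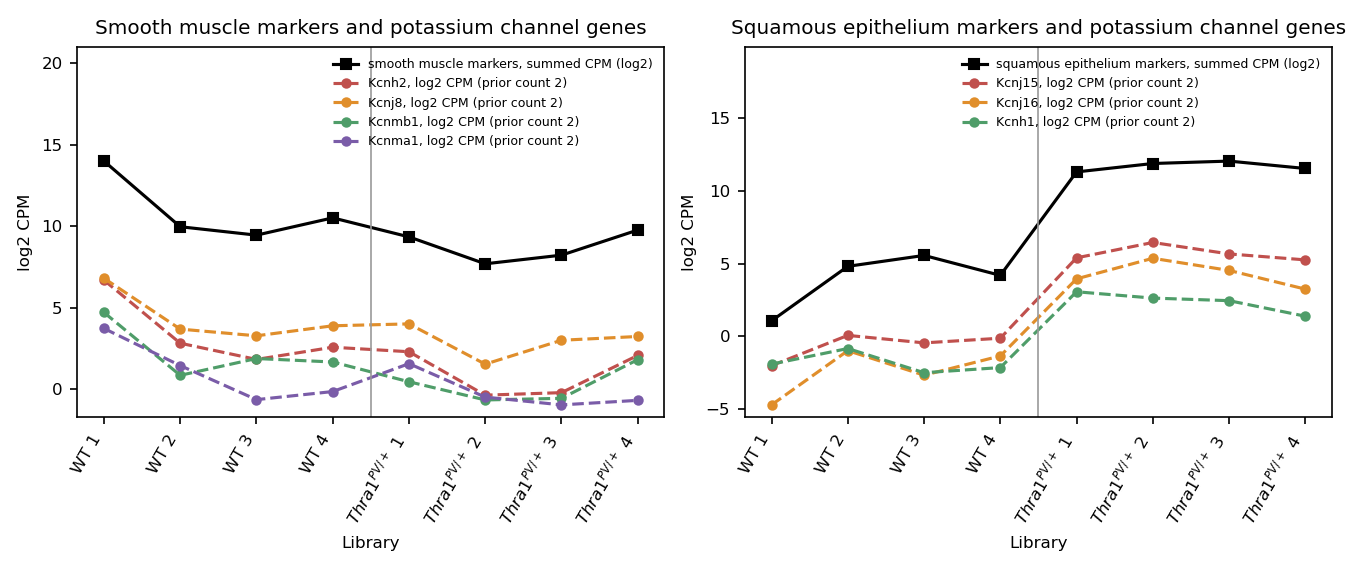
Log2 CPM (y axis) in each of the 8 libraries (x axis) of summed smooth muscle markers with Kcnh2, Kcnj8, Kcnmb1 and Kcnma1 (left), and of summed squamous epithelium markers with Kcnj15, Kcnj16 and Kcnh1 (right). WT library 1 is the highest on the left; on the right the 4 Thra1PV/+ libraries are above the 4 WT libraries for each line.

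The rule sets the epithelial channel genes (*Kcnj15*, *Kcnj16* and the Kcnk and Kcnq genes, 13 tested) against the muscle pair. Of the 13, 2 were called higher, 8 had a negative and 5 a positive log2 fold change, and the median was -0.41, which became 0.45 without WT library 1. The muscle pair had a median of -2.21, and -0.54 without it. The epithelial genes did not move as a block. *Kcnj15* and *Kcnj16* rose, while the abundant *Kcnk1* and *Kcnq1* had intervals that include 0 in the fit on 8 libraries. Without WT library 1 *Kcnk1* was at -0.69 (unadjusted p = 0.087 in edgeR's test). *Kcnq1* was at -0.60 in that fit (unadjusted p = 0.042, adjusted p = 0.528). There *Kcnk2* and *Kcnk5* were also negative (-0.69 and -0.93) and *Kcnk6* was positive (0.46). Of the 13, 5 were highest in WT library 1, the library with the high muscle markers, as were both muscle genes. The share was 47.5% over all 59 channel genes and 19.2% over all tested genes. Which cells express the epithelial and muscle channel genes was not tested.

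The calcium- and sodium-activated channel genes, *Kcnma1* included, all had a negative log2 fold change in the fit on 8 libraries. The 8 tested genes had a median log2 fold change of -0.53, from -1.90 for *Kcnma1* to -0.19 for *Kcnn3*, and 0 were called. Without WT library 1 the median was -0.35 and 7 of the 8 were negative. The sodium-activated *Kcnt2* was at 3.21, 1.81, 1.21 and 2.05 CPM in *Thra1PV/+* and 7.48, 6.54, 2.71 and 2.87 CPM in WT (-1.24, SE 0.46, adjusted p = 0.430). *Kcnn3*, a small-conductance channel known from uterine muscle, ranged widely, with an SD above its mean in both genotypes (13.9 ± 23.5 and 15.9 ± 20.4 CPM). It stood at 49.2 CPM in *Thra1PV/+* library 1 and 46.3 CPM in WT library 1 and at most 8.50 CPM in the other 6, and its log2 fold change was -2.83 without the first and 1.32 without the second.

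Auxiliary subunit genes had a median log2 fold change of -0.65 with 0 of 12 called. *Kcnmb4*, the beta subunit known from brain, was higher in every mutant library but at very few counts, 16, 10, 24 and 14 against 5, 8, 6 and 7 (log2 fold change 1.27, SE 0.40, adjusted p = 0.344). *Kcnip2*, a partner of A-type channels, was at 0.386, 0.183, 0.266 and 0.841 CPM in *Thra1PV/+* and 8.85, 0.686, 2.17 and 0.586 CPM in WT (-2.86, SE 0.98, adjusted p = 0.373). DESeq2 called *Kcnip2* lower, and without WT library 1 its log2 fold change was -1.40. *Kcne4*, an inhibitory partner of *Kcnq1*, held 30.9 CPM in WT library 1 and at most 6.95 CPM elsewhere (-2.54, and -0.93 without it). *Kcne1*, the partner of *Kcnq1* in heart, was highest in WT library 3 instead (0.625 ± 0.227 and 2.18 ± 3.16 CPM).

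Genes that move or bind potassium with these channels, which the rule does not take, were read from a list of 37 sodium pumps, hydrogen-potassium pumps, FXYD proteins, cation-chloride cotransporters and channel partners. Of these 29 were tested, 0 were called in either direction, and 21 had a negative and 8 a positive log2 fold change (median -0.44, and -0.17 without WT library 1). *Lrrc26*, the gamma subunit that opens *Kcnma1* channels in secretory epithelia, gave 1.08 (SE 0.36, adjusted p = 0.361). *Abcc9*, the sulfonylurea receptor that joins *Kcnj8*, gave -1.25 (SE 0.69, adjusted p = 0.616). It was at 86.5 CPM in WT library 1 and at most 26.9 CPM in any other library, the latter in *Thra1PV/+* library 1. *Atp12a*, a hydrogen-potassium pump, held 91.5 CPM in WT library 1 and at most 3.01 CPM in any other library (-4.82, SE 1.60, adjusted p = 0.361).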

How the data were processed

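RNA-seq of 8 endometrium libraries was analysed from 2 deposited tables. According to their methods the authors made stranded mRNA libraries, sequenced them on an Illumina NextSeq, trimmed reads with Trimmomatic and ran salmon for mm10, whose version and annotation release are not given in the sources used here. The deposited estimated counts per gene are not normalized. Once sorted, the deposited TPM values of the libraries differ by at most 0.2905 TPM, so the table appears quantile-normalized by the authors, and it served for levels between genes. Its 1 further column was not used.

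Counts were rounded, filtered with filterByExpr, TMM-normalized and tested for genotype alone with edgeR 4.0.16 in R 4.3.3 (quasi-likelihood, Benjamini-Hochberg over all 18174 genes). Calls used the study's thresholds, a fold change of 2 and an adjusted p of 0.1. The study applied them to DESeq2 results, whereas edgeR was the main test here. Standard errors come from the F statistic. DESeq2 1.42.0, limma 3.58.1, other scalings, filters, a replicate term and leaving out each library were alternatives. Scripts were tested on simulated data. Totals per library (48791602 to 59818887) give a floor of 3 counts, which covers counting error only. The study gives 4 mice per genotype, but no label ties a library to a mouse, so p-values measure the spread between libraries.

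Positions are from GENCODE M21, in which 80 of the 92 identifiers have the same version, and promoter windows, listed for 67 of the 92, from RefSeq. Named genes were those of the rule, those called, under an unadjusted p of 0.05 or without overlap, the 8 highest in TPM, and the 4 largest changes each way at a mean log2 CPM of at least 0. Others appear within their family. The genes and all lists (channel families, cell type markers, potassium transport partners) were chosen with earlier results of these data known. Some genes that meet these rules are not reported here.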

Additional observations from a re-analysis of the deposited data

Results flagged for a closer look

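For each of the 59 tested channel genes the 4 libraries of a genotype were searched for a value far from the other 3 on the log2 CPM scale (a gap to the nearest library, over the range, above Dixon's critical value). Of the 118 groups 5 met this, and 5.9 would by chance; 4 are given here. *Kcna2* was at -1.96 in WT library 3, where the other WT libraries lay at 2.35 to 2.66. *Kcng3* was at -2.01 in WT library 1, against -1.03 to -0.90 in the others. *Kcnk7* was at -3.68 in WT library 3, against -1.27 to -0.79. In *Thra1PV/+* endometrium *Kcnk13* was at 1.16 in library 1, against -0.98 to -0.77. None of these 4 genes was called. The low *Kcnk7* value belongs to a gene reported above as higher without overlap, and the low *Kcng3* value to a gene whose WT mean was above that of the mutants.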

How the results depend on the processing

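The 3 calls (*Kcnj15*, *Kcnj16* and *Kcnh1*) were made under both other size factors, library size alone, the looser filter, limma voom and an adjusted p of 0.05. The number called higher was 1 (*Kcnj15*) when at least 10 counts were required in every library, which removes *Kcnj16* and *Kcnh1* from the test. It was 2 on TPM with a pseudocount of 1, 3 with a pseudocount of 0.1, and 2 to 3 with 1 library left out. It was 5 at an unadjusted p under 0.05. Called lower were 2 genes by DESeq2, 9 at an unadjusted p under 0.05, and 0 to 0 with 1 library left out. The 14 genes under that unadjusted p became 7 with at least 10 counts in every library and 8 on TPM with a pseudocount of 1. With 1 library left out they ranged from 7 (without *Thra1PV/+* library 2) to 22 (without WT library 3), with 8 without *Thra1PV/+* library 3. *Kcnma1* reversed to log2 fold changes of 0.22 and 0.59 on TPM with pseudocounts of 1 and 0.1, and the cause was not tested. Calls over all genes were 180, beside 791 with DESeq2, 81 with the stricter filter, 81 without *Thra1PV/+* library 3, 116 without *Thra1PV/+* library 2, 114 without WT library 4 and 311 with limma voom.

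Same-numbered libraries of the 2 genotypes correlated at 0.27, -0.44, 0.34 and -0.16 in their deviations from the group means. Libraries with different numbers correlated at -0.51 to 0.56, so no pairing by number was seen. With 4 libraries per genotype that also differ in their markers, these values cannot tell whether same-numbered libraries were handled together. With the replicate number as a block 2 channel genes were called higher (*Kcnj15* and *Kcnh1*, *Kcnj16* having an adjusted p of 0.102), 0 lower, 14 were under an unadjusted p of 0.05, and 82 genes were called over all. At this depth genes at a few counts per library, such as *Kcnmb4*, allow no statement on small changes.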
